A study of Mus musculus with 77 samples.

Results

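The 9 microRNAs (miRNAs) described here are mmu-miR-223-3p, mmu-miR-150-5p, mmu-miR-142a-3p, mmu-miR-142a-5p, mmu-miR-126a-3p, mmu-miR-126a-5p, mmu-miR-155-5p, mmu-miR-146a-5p and mmu-miR-21a-5p, chosen by name as miRNAs of leukocytes, platelets and endothelium. They are 9 of the 872 miRNAs with a row in at least 1 of the study's miRNA tables. All 9 were in the table of 788 miRNAs bound to the Argonaute protein AGO2 in the BNST (bed nucleus of the stria terminalis), a stress-related region of the forebrain. Of the 299 miRNAs in the blood table, 6 were among the 9. miR-223-3p, miR-142a-3p and miR-126a-3p were not analysed here in blood, where 254 rows were named as 5p strands and 17 as 3p strands. No row carried a copy suffix.

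The mice were male B6 (C57BL/6Crl in the labels, C57BL/6NCrl in the study's methods) and D2 (DBA/2Crl in the labels, DBA/2NCrl in the methods). They went through 10 days of chronic social defeat by CD-1 aggressors, or were kept as same-strain controls without physical contact. The labels give an age of 8 weeks, and by the methods the mice were younger when defeat began. Tissue was taken about a week after defeat ended, and the study's timeline placed a forced swim test in between. Defeated mice were called susceptible or resilient from their social avoidance afterwards, and the most extreme animals were taken. Trunk blood came from 5 B6 control, 5 B6 resilient, 5 B6 susceptible, 5 D2 control and 5 D2 susceptible mice, each of which gave both a miRNA and a globin- and rRNA-depleted RNA library. BNST punches of 3 B6 mice were pooled for each AGO2 immunoprecipitate, which gave 5 control, 5 resilient and 3 susceptible miRNA libraries and 5, 5 and 4 mRNA libraries. Resilience was a selection on behaviour, not a treatment. Libraries held 6916739 to 10113657 miRNA reads in blood and 3173294 to 9404828 in AGO2 pools. Levels are given as log2 CPM, the logarithm of reads per megaread of an effective library size, as deposited. That size was 0.8421 to 1.2253 times the reads of the library in blood miRNA and 0.6442 to 1.5345 times in blood mRNA. On this scale a difference of 1 is a doubling.

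Blood cells and vessel walls carry distinct miRNAs. miR-223 is the miRNA of neutrophils and other myeloid cells, and platelets also hold it. miR-150 is high in mature lymphocytes, miR-142 is made in all blood lineages, and miR-126 marks endothelium and also occurs in platelets. miR-155 and miR-146a are induced through NF-kappaB in activated leukocytes, where miR-146a feeds back on Traf6 and Irak1, which act in Toll-like receptor signalling. miR-21 is abundant in most tissues and rises in many inflammatory states. A miRNA pairs with messenger RNAs mainly through its seed, bases 2 to 8, within AGO2.

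RefSeq (GRCm38.p6) held the mature sequence of 7 of the 9 miRNAs. They are shown 5′ to 3′ with the seed in capitals, because the seed decides which of them can share target sites. The sequence of miR-146b-5p is added beside that of miR-146a-5p for the same reason, and that of miR-451a as the red cell miRNA used below.
mmu-miR-223-3p: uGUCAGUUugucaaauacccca
mmu-miR-142a-3p: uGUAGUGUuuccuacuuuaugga
mmu-miR-142a-5p: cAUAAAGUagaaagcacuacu
mmu-miR-126a-3p: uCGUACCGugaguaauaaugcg
mmu-miR-155-5p: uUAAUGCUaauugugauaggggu
mmu-miR-146a-5p: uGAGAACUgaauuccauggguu
mmu-miR-21a-5p: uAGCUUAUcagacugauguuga
mmu-miR-146b-5p: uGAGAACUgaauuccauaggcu
mmu-miR-451a: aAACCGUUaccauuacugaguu

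The 7 seeds were all different. miR-146a-5p and miR-146b-5p shared the seed GAGAACU and were identical at 20 of 22 bases, with the first difference at position 18 counted from the 5′ end. On GRCm38.p6 the miR-223 hairpin lies at chrX:96242817-96242926 on the plus strand, within an exon of the non-coding transcript gene F630028O10Rik. The miR-142 hairpin lies at chr11:87756864-87756927 on the plus strand, in an intron of Mir142hg. That of miR-126a lies at chr2:26591357-26591429 on the plus strand inside Egfl7, a gene of endothelial cells, and falls in an exon of 1 annotated Egfl7 transcript. The miR-155 hairpin, at chr16:84714140-84714204 on the plus strand, is in an exon of the non-coding Mir155hg. On the minus strand of chromosome 11, the miR-146a hairpin is at chr11:43374397-43374461 and the miR-21a hairpin at chr11:86584067-86584158, the latter within an exon of 1 Vmp1 transcript.

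Blood levels spanned 3 orders of magnitude. In B6 controls miR-21a-5p was 16.69 ± 0.14 log2 CPM (SD, n = 5) and ranked 2 of 299 miRNAs, below the erythrocyte miRNA miR-451a alone. miR-142a-5p followed at 12.55 ± 0.52 with rank 18. miR-150-5p was at 8.58 ± 0.67 with rank 40, miR-146a-5p at 7.22 ± 0.54 with rank 55, miR-126a-5p at 6.98 ± 0.41 with rank 64 and miR-155-5p at 5.13 ± 0.51 with rank 97. Of these neighbours only miR-146a-5p and miR-126a-5p overlapped between mice. miR-451a took 23.5% to 39.1% of the miRNA reads of each library and the 6 miRNAs together 5.49% to 12.6%. In bulk blood, fewer cells of a type cannot be told apart from less RNA per cell.

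**Figure D1:**
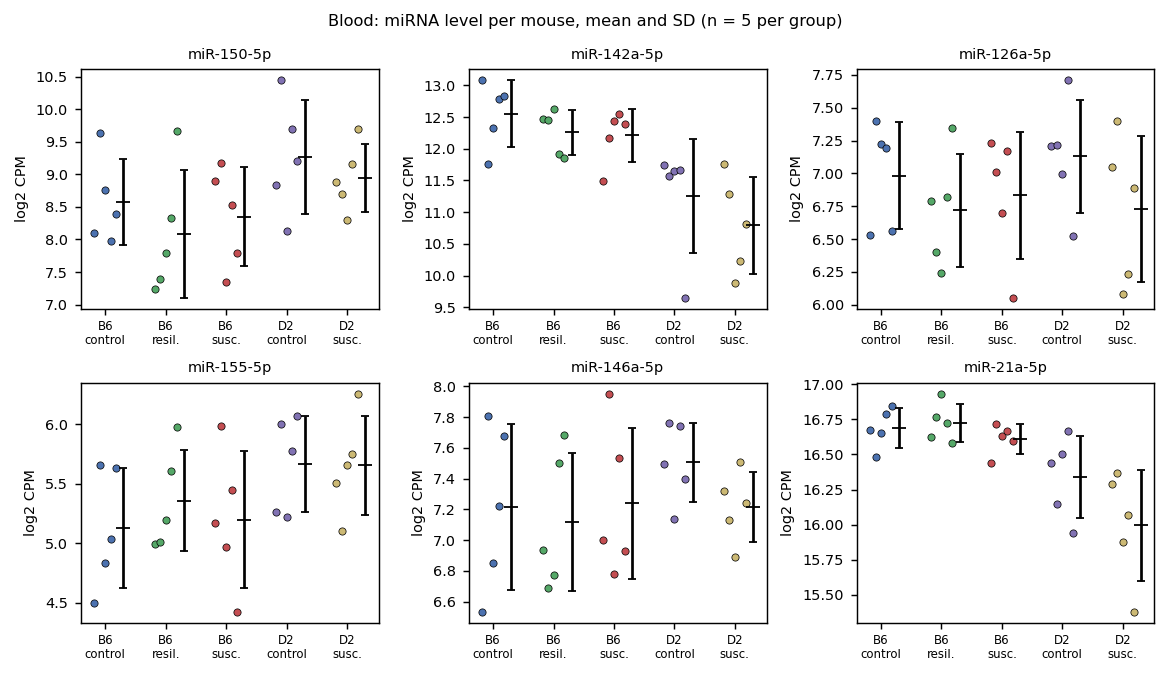
Level of 6 miRNAs (log2 CPM, 1 panel each) in the blood of every mouse by group, with the group mean and SD beside the points (n = 5 per group). miR-142a-5p and miR-21a-5p sit lower in D2 mice, and the 3 B6 groups overlap for all 6 miRNAs.

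In 2 D2 mice the group label differs from what the column header says. Mouse 2 of the D2 control group carries a column name for a susceptible animal, and mouse 2 of the D2 susceptible group carries one for a control. The labels were used, and for the miRNAs the values by column name are given where they change a call. For the mRNAs values by column name are not given.

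The strain comparison asked which levels differ between the genetic backgrounds with and without defeat. miR-142a-5p was lower in D2 mice by a factor of 2.46 in controls, and miR-21a-5p was lower in D2 mice by a factor of 1.53 after defeat. A miRNA was called at an unadjusted limma p under 0.05 together with a 1.2-fold or wider change. D2 controls against B6 controls gave 2 called of the 6, both lower, against 25.4% of all blood miRNAs called and 12.0% called lower. D2 susceptible against B6 susceptible mice also gave 2 of 6 lower, against 34.4% called and 20.7% called lower. With so many miRNAs called in both, 2 of 6 is near the background.

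In D2 controls miR-142a-5p measured 11.74, 11.58, 11.64, 11.66 and 9.65 log2 CPM, and in B6 controls 13.08, 11.75, 12.32, 12.79 and 12.82. Every D2 control lay below every B6 control, though the gap between the closest mice was small and D2 control mouse 5 lay far below the other D2 controls. The difference was −1.30 (SE 0.36, limma adjusted p = 0.0128, exact permutation p = 0.00794, the smallest that 5 against 5 allows in this two-sided test). Without D2 control mouse 5 it was −0.90 and was still called. In susceptible mice the 5 D2 values were 11.76, 11.28, 9.88, 10.23 and 10.82 and the 5 B6 values were 11.49, 12.17, 12.44, 12.55 and 12.39. Here 4 of 5 D2 mice lay below all B6 mice, and the difference was −1.41 (SE 0.36, limma adjusted p = 0.00593, exact permutation p = 0.0159). The call was made in all 35 alternative fits of each of these comparisons, with limma adjusted p from 0.00282 to 0.0451 in controls and from 5.79e-05 to 0.0293 in susceptible mice.

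miR-21a-5p measured 16.44, 16.15, 16.50, 16.66 and 15.94 log2 CPM in D2 controls and 16.68, 16.48, 16.65, 16.79 and 16.84 in B6 controls. The groups overlapped, and the difference of −0.35 (SE 0.15) had a limma adjusted p of 0.124 and an exact permutation p of 0.0476. In susceptible D2 mice the values were 16.29, 16.37, 15.88, 16.07 and 15.38, and in susceptible B6 mice 16.44, 16.72, 16.63, 16.67 and 16.60. These groups did not overlap, with a difference of −0.61 (SE 0.15, limma adjusted p = 0.00392, exact permutation p = 0.00794). The difference in controls fell to −0.18 when the reads were scaled to the library total and lost its call. In susceptible mice that scaling gave −0.43 and quantile normalization −0.34, both still called.

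The other 4 miRNAs were not called between strains. miR-150-5p differed by 0.69 (SE 0.45) in controls and 0.60 (SE 0.45) in susceptible mice. miR-155-5p differed by 0.54 (SE 0.28) and 0.45 (SE 0.28), with higher D2 means for both miRNAs in each condition. With D2 groups set by column name, 4 of the 6 were called between susceptible mice, since miR-150-5p (0.95, limma adjusted p = 0.130) and miR-155-5p (0.63, limma adjusted p = 0.0955) then passed the unadjusted threshold. The share of all blood miRNAs called by column name is not given, so this count has no background beside it. miR-146a-5p and miR-126a-5p differed by 0.29 or less in either condition. miR-146b-5p, the relative of miR-146a-5p with the same seed, was higher in D2 mice by 1.12 (SE 0.16, limma adjusted p = 9.7e-06) in controls and by 1.09 (SE 0.16, limma adjusted p = 1.89e-05) in susceptible mice. Every D2 mouse had more miR-146b-5p than every B6 mouse of the same condition. The strains of these mice also carry different title prefixes, so strain and prefix cannot be told apart.

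Blood of D2 controls also held another mix of cell marker mRNAs. All 6 B cell markers were called lower than in B6 controls, with a median of −0.58, against 11.4% of all blood mRNAs called lower and 26.4% called in either direction. Cd79a, a subunit of the B cell receptor, was lower by 0.63 (SE 0.24, limma adjusted p = 0.0818). Of 8 platelet markers 5 were called higher, with a median of 0.98, and of 8 neutrophil markers 2 were called higher, Cxcr2 and Csf3r. Of 6 erythroid markers 2 were called lower. Of 6 T cell markers 3 were called higher, with a median of 0.49. Of 5 NK cell markers 2 were called lower, and of 6 endothelial markers 2 were called higher. The part of these mRNA differences in those of the miRNAs was not tested. Mir142hg, which holds the miR-142 hairpin, differed by 0.29 (SE 0.26) and Vmp1 by 0.33 (SE 0.18), neither of them called.

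Defeat in B6 mice called none of the 6 blood miRNAs. None passed in resilient mice against controls, where 4.35% of all blood miRNAs were called, in susceptible mice against controls, with 4.01% called, or in susceptible against resilient mice, with 3.01% called. No unadjusted limma p of the 6 was under 0.05 in these comparisons. The widest difference was that of miR-150-5p between resilient mice and controls, −0.49 (SE 0.45). Its values were 7.24, 7.39, 7.79, 8.33 and 9.66 log2 CPM in resilient mice and 8.10, 9.64, 8.76, 7.98 and 8.40 in controls. Both groups spread over more than 1.5 log2 units, which limits what 5 mice can show for this miRNA. Leaving out resilient mouse 5, the highest of its group, brought 1 of the 6 to a call.

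Platelet mRNAs moved in the same B6 susceptible mice. Of 8 platelet markers 5 were called higher than in controls, with a median of 0.86, against 2.98% of all blood mRNAs called higher and 4.5% called in either direction. They were Ppbp (0.89, SE 0.40), Gp9, Gp1bb, Itga2b and Treml1. Each had a limma adjusted p of 0.968. The count of listed genes called in this comparison was 7, and 1 without B6 control mouse 2 or without B6 susceptible mouse 3. Pf4, the platelet chemokine, differed by 0.65 (SE 0.36) and was not called. miR-126a-5p, the only miRNA of this set in the blood table that is named for platelets, differed by −0.15 (SE 0.28, exact permutation p = 0.571) in the same mice. In resilient B6 mice against controls none of the markers, host genes and target genes was called (2.11% of all blood mRNAs), and in susceptible against resilient mice Cd3e was (2.03%).

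In D2 mice defeat called 1 of the 6, miR-21a-5p, against 8.7% of all blood miRNAs. It was lower in susceptible mice by 0.34 (SE 0.15, limma adjusted p = 0.539, exact permutation p = 0.159), and the 2 groups overlapped. Without D2 susceptible mouse 5, the lowest, the difference was −0.19 and no longer called, and the call was also lost without D2 control mouse 1, 3 or 4 or D2 susceptible mouse 3. All 6 miRNAs had lower means in susceptible than in control D2 mice, with a median difference of −0.33 against −0.02 over all blood miRNAs. By column name this order was lost, since miR-150-5p differed by 0.38 and miR-155-5p by 0.35, and miR-146a-5p by −0.04. miR-142a-5p differed by −0.46 (SE 0.36) and miR-126a-5p by −0.40 (SE 0.28). By the labels no cell marker mRNA on the lists was called between susceptible and control D2 mice, where 1.57% of all blood mRNAs were. D2 control mouse 2, 1 of the 2 mice with a differing column name, had the highest Cd79a (3.09 log2 CPM) and the lowest Pf4 (8.63) of its group. The marker result may therefore change with the labels. The difference between the strains in the response to defeat was tested directly and called none of the 6 miRNAs, against 4.35% of all.

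**Figure D2:**
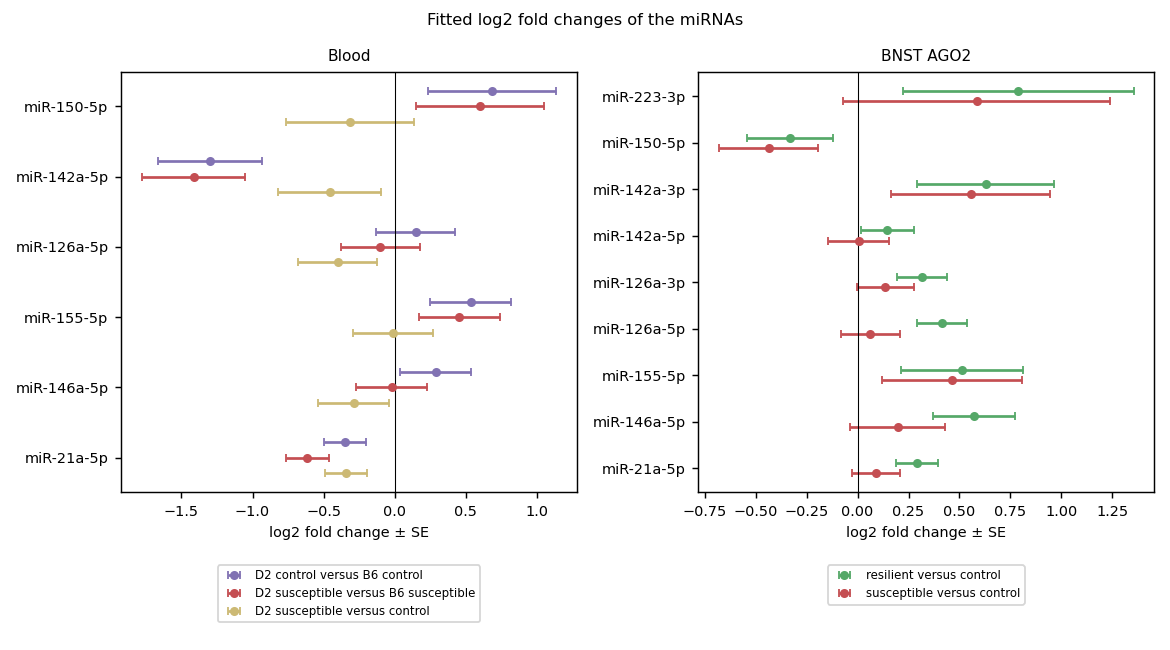
Fitted log2 fold change with its standard error (horizontal axis) for each miRNA (rows), in blood on the left and in BNST AGO2 pools on the right, for 3 comparisons in blood and 2 in AGO2 pools. In blood miR-142a-5p stands at −1.30 and −1.41 in the strain comparisons, and in AGO2 pools 8 of 9 miRNAs have higher means in resilient pools than in controls.

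Whether the blood miRNAs followed the cells that make them was examined across mice within each strain, against the mRNAs Cd79a (B cells), Pf4 (platelets) and S100a8 (neutrophils) of the same animals. None of the 36 relations passed after Benjamini-Hochberg adjustment, and 8 had an unadjusted permutation p under 0.05. miR-150-5p and Cd79a had a Pearson's r of 0.65 in B6 mice (n = 15, permutation p = 0.00943, adjusted 0.0851) and Spearman's rho = 0.62 (permutation p = 0.0169, adjusted 0.107). In D2 mice r was also 0.65 (n = 10, permutation p = 0.0423, adjusted 0.191) with rho = 0.58 (permutation p = 0.0889, adjusted 0.385). Without the 2 mice farthest from the median of Cd79a, r was 0.51 in B6 and 0.63 in D2. Within the B6 title prefixes r was 0.63 (EC3, n = 7) and 0.68 (EC4, n = 8). The D2 prefixes held at most 4 mice and give no value.

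The NF-kappaB miRNAs gave similar values in B6 mice. With Cd79a miR-146a-5p had r = 0.70 (n = 15, permutation p = 0.00425, adjusted 0.0796) and rho = 0.62 (permutation p = 0.0145, adjusted 0.107), and r = 0.65 without the 2 farthest mice. miR-155-5p had r = 0.64 (permutation p = 0.0118, adjusted 0.0851) and rho = 0.65 (permutation p = 0.0106, adjusted 0.107), and 0.57 without them. Their r lay between 0.58 and 0.72 within both B6 prefixes. With Pf4 the signs were opposite, at r = −0.64 for miR-150-5p, −0.68 for miR-146a-5p and −0.54 for miR-155-5p in B6 mice, all with adjusted permutation p of 0.0796 or more. For miR-126a-5p, which platelets carry, r with Pf4 was −0.36 in B6 (permutation p = 0.187) and −0.10 in D2 mice (permutation p = 0.779). miR-142a-5p and miR-21a-5p gave no unadjusted p under 0.05 with any of the 3 markers.

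miR-223-3p with S100a8 was the planned relation for neutrophils. In its place the other strand of the hairpin, miR-223-5p (77 to 255 reads per mouse), was added after the data had been seen. It rose with S100a8 in B6 mice (r = 0.57, n = 15, permutation p = 0.0235, adjusted 0.0469), with rho = 0.75 (permutation p = 0.00188). The adjustment covered only 2 relations, those of miR-223-5p with S100a8 in B6 and in D2 mice. Among the 36 relations above, a smaller permutation p of 0.00425 was adjusted to 0.0796. The adjusted 0.0469 therefore cannot be set beside the adjusted values of those 36. For miR-223-5p in B6 mice r was 0.74 without the 2 farthest mice. In EC3 r was 0.68 and in EC4 0.37. In D2 mice r was 0.24 (n = 10, permutation p = 0.497) and turned to −0.24 without the 2 farthest mice.

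A red cell marker mRNA gave the widest r. Alas2, the first enzyme of erythroid haem synthesis, and Ms4a1, which encodes the B cell antigen CD20, were added after the data had been seen, for 24 relations. Of these 7 passed adjustment. With Ms4a1 only miR-146a-5p in B6 mice passed (r = 0.66, adjusted permutation p = 0.0295), and its rho of 0.59 did not (adjusted permutation p = 0.0609). For miR-150-5p r with Ms4a1 was 0.60 in B6 (adjusted permutation p = 0.0515) and 0.69 in D2 mice (adjusted permutation p = 0.0645). miR-150-5p fell as Alas2 rose, with r = −0.92 in B6 mice (permutation p = 1e-05, the smallest that 100000 resamples give; adjusted 0.00024; rho = −0.90) and −0.82 in D2 mice (permutation p = 0.0038, adjusted 0.0201; rho = −0.76). Without the 2 farthest mice r was −0.88 in B6 and −0.58 in D2. Within EC3 r was −0.95 and within EC4 −0.92, and with both tables scaled to library totals −0.82 in B6 and −0.76 in D2. In B6 mice miR-126a-5p had r = −0.77 (adjusted permutation p = 0.0103), miR-146a-5p −0.69 and miR-155-5p −0.69 (both adjusted permutation p = 0.0201), and without the 2 farthest mice these were −0.74, −0.63 and −0.61. miR-142a-5p pointed the other way in B6 mice, with r = 0.55 (adjusted permutation p = 0.0761), but not in D2 mice, with r = −0.56 (adjusted permutation p = 0.179). In D2 mice r with Alas2 was −0.81 for miR-146a-5p (adjusted permutation p = 0.0201), −0.50 for miR-126a-5p and −0.39 for miR-155-5p. The last 2 did not pass adjustment. The relation of the red cell miRNA miR-451a with Alas2 was not tested. Over the 25 mice, with group means removed and as a description, miR-451a had r = 0.28 with miR-150-5p and 0.64 with miR-126a-5p. Its r was 0.14 with miR-146a-5p, −0.06 with miR-155-5p and 0.34 with miR-142a-5p. These values pool both strains, so they cannot be set beside the r with Alas2 within a strain.

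**Figure D3:**
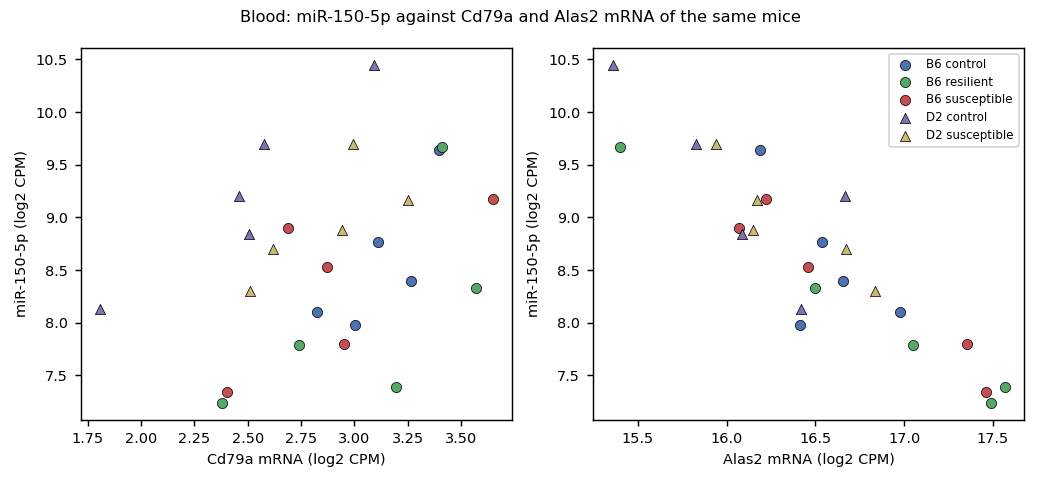
miR-150-5p (vertical axis, log2 CPM) against Cd79a mRNA (left) and Alas2 mRNA (right, both log2 CPM) in the 25 mice, with B6 as circles and D2 as triangles. Within each strain r with Cd79a is 0.65, and miR-150-5p falls with Alas2 (r = −0.92 in B6 and −0.82 in D2).

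The closest patterns were sought over all 25 mice after each group's mean had been removed, as a description without a test. The mRNAs most like miR-150-5p were Rhof (r = 0.90), Arhgef6 (r = 0.89) and Dock2 (r = 0.87), the last of which acts in lymphocyte migration. miR-146a-5p was closest to Mgat2 (r = 0.91), Krtcap2 (r = 0.86) and Tnfaip3 (r = 0.86), an inhibitor of NF-kappaB signalling. miR-155-5p and miR-146a-5p were among each other's nearest miRNAs (r = 0.80). miR-142a-5p was nearest to miR-144-5p (r = 0.91) and miR-33-5p (r = 0.88), and its nearest mRNA was Tamm41 (r = 0.80). miR-21a-5p was nearest to miR-340-5p (r = 0.89) and miR-30e-5p (r = 0.83), and miR-126a-5p to miR-362-5p (r = 0.84) and miR-190a-5p (r = 0.82). The points share their libraries and the scaling of each library.

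In the BNST the order of the miRNAs was different. AGO2 pools of controls held most miR-150-5p (12.04 ± 0.22 log2 CPM, SD, n = 5, rank 47 of 788), followed by miR-126a-5p (11.62 ± 0.17, rank 52), miR-21a-5p (11.20 ± 0.15, rank 63) and miR-126a-3p (9.83 to 10.20 in the 5 pools, rank 98). miR-142a-5p was at 8.40 ± 0.15 and miR-146a-5p at 7.00 ± 0.20. miR-142a-3p (20 to 39 reads per control pool), miR-155-5p (15 to 29 reads) and miR-223-3p (2 to 22 reads) were near the floor. Control pools of neighbours in this order overlapped for miR-150-5p and miR-126a-5p, for miR-142a-3p and miR-155-5p, and for miR-155-5p and miR-223-3p. The red cell miRNA miR-451a, rank 1 in blood, ranked 213 here. The 2 strands of the miR-126a hairpin kept a nearly fixed ratio, with miR-126a-5p 2.80 to 3.58 times as high as miR-126a-3p in the 13 pools, while miR-142a-5p exceeded miR-142a-3p by 22.8 to 68.9 times.

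**Figure D4:**
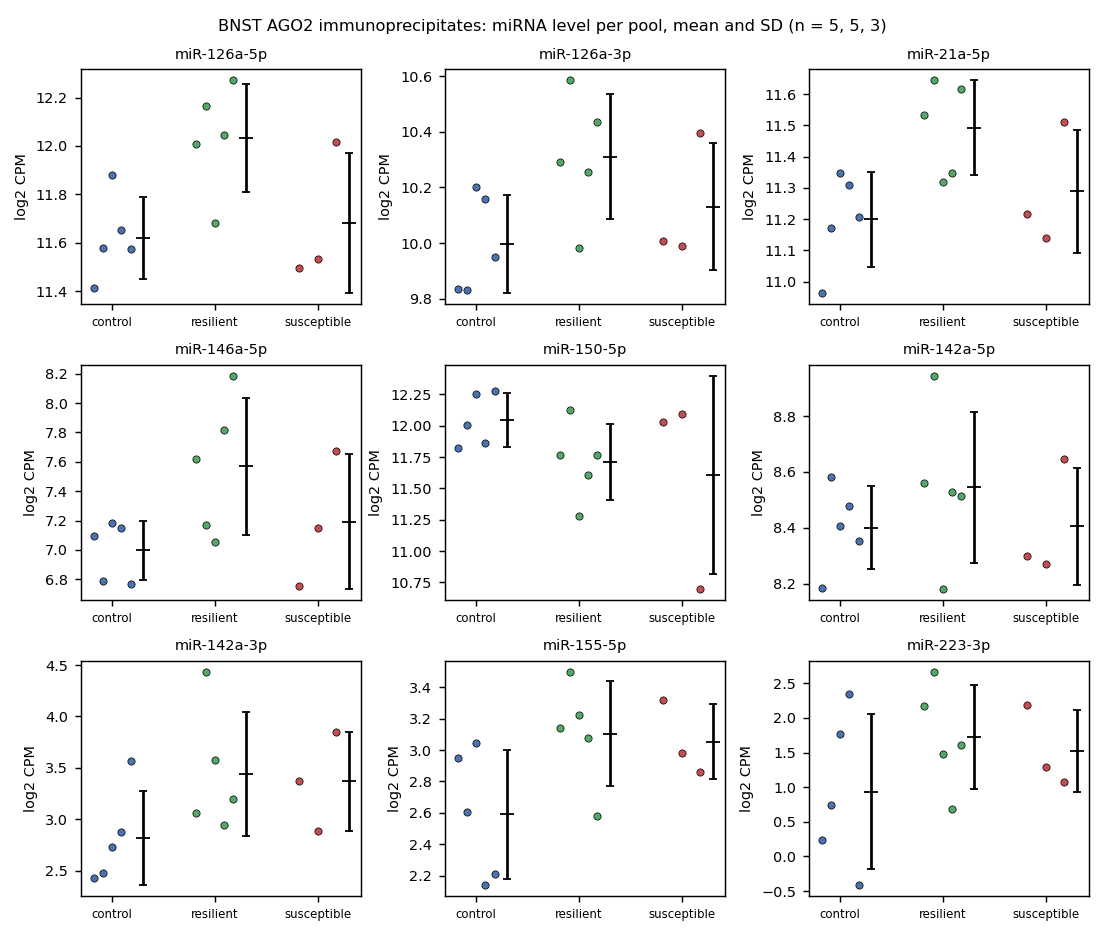
Level of the 9 miRNAs (log2 CPM, 1 panel each) in every BNST AGO2 pool by group, with the group mean and SD beside the points (n = 5 control, 5 resilient and 3 susceptible pools). In resilient pools miR-126a-5p, miR-126a-3p, miR-21a-5p and miR-146a-5p lie higher than in most control pools, without full separation.

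The AGO2 pools were compared to see which AGO2-bound miRNAs differed in level after defeat. Such a level mixes the amount of a miRNA in the tissue with its loading into AGO2. In resilient pools 4 of the 9 were called higher than in controls, namely miR-126a-5p, miR-126a-3p, miR-146a-5p and miR-21a-5p. Among all 788 miRNAs 9.52% were called in that comparison and 3.93% were called higher. None of the 4 passed adjustment over the table, with limma adjusted p of 0.218 for miR-126a-5p and 0.303 for each of the others. The median difference of the 9 was 0.41, against −0.01 over all miRNAs. Control pools held 3173294 to 4565205 miRNA reads and resilient pools 3839603 to 9404828, so depth went partly with the group. The part of depth in these differences was not tested, nor was that of experimental cohort, which the labels do not give.

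miR-126a-5p measured 12.01, 12.16, 11.68, 12.04 and 12.27 log2 CPM in resilient pools and 11.41, 11.58, 11.88, 11.65 and 11.57 in control pools. Of the resilient pools 4 lay above every control, and the difference was 0.41 (SE 0.12, exact permutation p = 0.0159). miR-126a-3p, from the same hairpin and so no independent observation, differed by 0.32 (SE 0.12, exact permutation p = 0.0397), with 4 of 5 resilient pools above every control. Their host gene Egfl7 differed by 0.24 (SE 0.19) in AGO2 mRNA and was not called.

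miR-146a-5p measured 7.62, 7.17, 7.05, 7.82 and 8.18 log2 CPM in resilient pools and 7.09, 6.79, 7.19, 7.15 and 6.77 in control pools. The difference of 0.57 (SE 0.20, exact permutation p = 0.0635) rested on 3 resilient pools that lay above every control. miR-146b-5p, which shares its seed, differed by 0.72 (SE 0.18, limma adjusted p = 0.14, exact permutation p = 0.0159). For miR-146b-5p 4 of the 5 resilient pools lay above every control.

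miR-21a-5p measured 11.53, 11.64, 11.32, 11.35 and 11.62 log2 CPM in resilient pools and 10.96, 11.17, 11.35, 11.31 and 11.21 in control pools. The difference was 0.29 (SE 0.10, exact permutation p = 0.0238), and 3 resilient pools lay above every control. Without resilient pool 2 the count of called miRNAs fell from 4 to 2, with miR-126a-3p at 0.25 and miR-21a-5p at 0.25 no longer called.

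The other 5 were not called in resilient pools. miR-223-3p differed by 0.79 (SE 0.57), miR-142a-3p by 0.63 (SE 0.34) and miR-155-5p by 0.51 (SE 0.30), each on few reads. miR-142a-5p differed by 0.15 (SE 0.13). miR-150-5p was the only one of the 9 with a lower mean, by −0.33 (SE 0.21, exact permutation p = 0.0873).

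Susceptible pools gave no call among the 9 against controls, where 4.7% of all miRNAs were called and no unadjusted limma p of the 9 was under 0.05. miR-126a-5p, at 11.49, 11.53 and 12.02 log2 CPM, differed by 0.06 (SE 0.14), and miR-21a-5p, at 11.22, 11.14 and 11.51, by 0.09 (SE 0.12). Susceptible pool 4 was the highest of its group for both. Against resilient pools 1 of the 9 was called, miR-126a-5p, lower by 0.35 (SE 0.14, limma adjusted p = 0.978, exact permutation p = 0.107, where 3 against 5 allows 0.0357), against 3.93% of all miRNAs. None of the 9 was called without resilient pool 5 or susceptible pool 1 or 2, and 4 were without susceptible pool 4. All 9 had lower means in susceptible than in resilient pools, with a median difference of −0.18 against −0.02 over all miRNAs. Against controls 8 of the 9 had higher means in susceptible pools. The 9 hold both strands of the miR-126a and miR-142a hairpins and are not independent. With 3 pools the susceptible group is the least certain.

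Of 3 erythrocyte miRNAs in the AGO2 table, miR-451a was called higher in resilient pools, miR-144-3p differed by 0.34 (SE 0.24) and miR-486a-5p by −0.13 (SE 0.14). miR-451a stood at 7.28, 7.99, 7.03, 7.09 and 7.28 log2 CPM against 6.51, 7.05, 7.08, 7.18 and 6.92 in controls (0.39, SE 0.17, limma adjusted p = 0.364). Across the 13 pools miR-21a-5p rose with miR-451a (r = 0.84, permutation p = 0.0001, adjusted 0.00202; rho = 0.86, permutation p = 0.00034). miR-126a-3p did so with r = 0.80 (permutation p = 0.00015, adjusted 0.00202; rho = 0.85) and miR-126a-5p with r = 0.69 (permutation p = 0.00212, adjusted 0.0143; rho = 0.73). After the removal of group means r was 0.76, 0.72 and 0.53, and without the 2 pools farthest from the median of miR-451a it was 0.80, 0.70 and 0.65. miR-142a-5p had r = 0.84 (permutation p = 0.00038, adjusted 0.00342), which was 0.57 without those 2 pools, and miR-142a-3p had r = 0.71, which was 0.07 without them. miR-223-3p, on 2 to 29 reads per pool, had r = 0.70 (permutation p = 0.00645, adjusted 0.0348; rho = 0.73), and 0.60 without them. miR-146a-5p had r = 0.22 (permutation p = 0.462) but rho = 0.54 (permutation p = 0.059, adjusted 0.199) and r = 0.57 without the same 2 pools, and r was −0.16 after the removal of group means. miR-150-5p had r = 0.04 (permutation p = 0.885). With miR-451a as a covariate, the difference between resilient and control pools was 0.27 for miR-126a-5p, 0.13 for miR-126a-3p and 0.14 for miR-21a-5p, none of them called, and 0.65 for miR-146a-5p, still called.

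**Figure D5:**
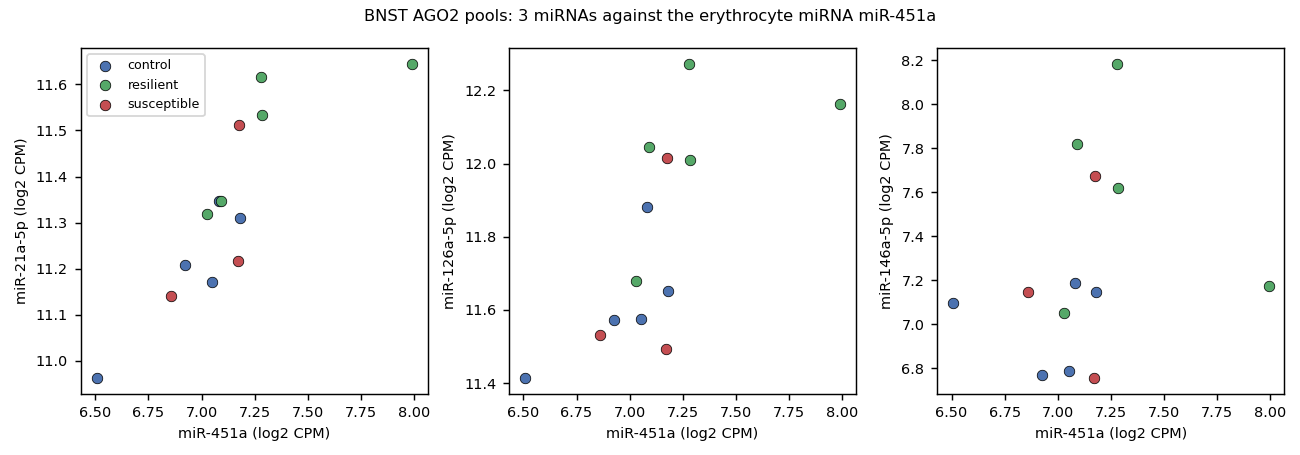
miR-21a-5p (left), miR-126a-5p (middle) and miR-146a-5p (right), each in log2 CPM on the vertical axis, against miR-451a (log2 CPM, horizontal axis) in the 13 BNST AGO2 pools, coloured by group. miR-21a-5p and miR-126a-5p rise with miR-451a (r = 0.84 and 0.69), and miR-146a-5p has r = 0.22, with resilient pool 2 far to the right.

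Marker mRNAs of the AGO2 pools were read for the same cell types. Of 6 erythroid mRNAs 4 were in the table, none was called higher in resilient pools, and the globin gene Hba-a1 was called lower (−0.82, SE 0.32). All 7 endothelial markers were in the table, and none was called in resilient pools, with a median of −0.02. Of 6 microglial markers Csf1r was called higher (0.38, SE 0.13) and P2ry12 lower (−0.54, SE 0.17). The table held 0 of 6 B cell, 0 of 5 NK cell, 2 of 8 neutrophil and 2 of 8 platelet markers. Csf3r, the neutrophil growth factor receptor, was called higher by 0.64 (SE 0.22), and the other neutrophil marker, Mmp9, differed by −0.12 (SE 0.59). All AGO2 mRNA calls stand against a background of 17.7% of mRNAs called in resilient pools, 18.9% in susceptible pools against controls and 2.14% between susceptible and resilient pools. Of 4 choroid plexus markers, 1 was called lower in resilient pools against controls, with a median of −0.98, and all 4 in susceptible pools against controls, with a median of −2.13. The part of these markers in the miRNA differences was not tested. No relation of the 9 miRNAs with Cldn5 (endothelium) or Cx3cr1 (microglia) of the same-numbered mRNA pools passed adjustment over the 27 relations. That pools of one number are the same material is an assumption here. The lowest Cldn5 value was that of miR-142a-5p (r = −0.64, permutation p = 0.0185, adjusted 0.0712).

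Textbook targets were searched for the reverse complement of each seed, 7 letters on the mRNA strand, in the longest 3′ untranslated region (UTR) of GENCODE M21. This seed match is printed in capitals for sites of the mRNAs discussed next, with the first match of each UTR shown.
Traf6 for miR-146a-5p, chr2:101697944-101697966, plus strand: accgctctggtgttgAGTTCTCa
Irak1 for miR-146a-5p, chrX:74015393-74015415, minus strand: agactcagaggtcaaAGTTCTCa
Pdcd4 for miR-21a-5p, chr19:53929417-53929439, plus strand: agtgtgggtgttctgATAAGCTa
Spry2 for miR-21a-5p, chr14:105892498-105892520, minus strand: ggagacccacattgcATAAGCTa
Bach1 for miR-155-5p, chr16:87732173-87732195, plus strand: ctctatgaacagtttAGCATTAa
Mef2c for miR-223-3p, chr13:83663881-83663903, plus strand: gcaaactattgggtcAACTGACa
Rac1 for miR-142a-3p, chr5:143506246-143506268, minus strand: agtagagattactttACACTACa

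Among 13846 genes of the AGO2 mRNA table with such a UTR (median length 1236 bases), AGTTCTC occurred in 12.8%, AGCATTA in 9.6%, ATAAGCT in 8.2%, AACTGAC in 9.8% and ACACTAC in 7.1%. The miR-126a-3p match CGGTACG occurred in 26 genes, 0.2% of all, and in none of its 4 listed targets Spred1, Pik3r2, Vcam1 and Irs1. Traf6 held 4 matches to miR-146a-5p and Irak1 held 2. A match describes letters only.

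Of 26 listed targets in the AGO2 mRNA table, 1 was called higher and 3 lower in resilient pools, against the 17.7% of all mRNAs. Traf6 and Irak1, the signalling targets of miR-146a-5p, differed by 0.04 (SE 0.10) and 0.16 (SE 0.10) where miR-146a-5p was higher. For miR-21a-5p, Spry2, an inhibitor of growth factor signalling, was called lower by 0.63 (SE 0.27, limma adjusted p = 0.194), and Pdcd4, an inhibitor of translation, differed by −0.18 (SE 0.16). Mef2c, a transcription factor with 2 matches to miR-223-3p, was called lower by 0.48 in resilient pools (SE 0.13, limma adjusted p = 0.0536) and by 0.67 in susceptible pools (SE 0.13, limma adjusted p = 0.0132). Rac1, a small GTPase with 1 match to miR-142a-3p, was called lower by 0.34 (SE 0.10) and 0.30 (SE 0.11). Irs1 was called higher by 0.33 (SE 0.12) in resilient pools without holding a match to miR-126a-3p. The mRNA pools were precipitated with AGO2, so these levels mix the amount of an mRNA with its AGO2 occupancy.

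In blood 25 of the 26 targets were in the table, and between D2 and B6 controls 6 were called higher and 1 lower, against the 26.4% of all mRNAs. Bach1, a transcriptional repressor with 2 matches to miR-155-5p, was higher in D2 controls by 0.75 (SE 0.13, limma adjusted p = 0.000117) and in susceptible B6 mice by 0.31 over B6 controls (SE 0.13, limma adjusted p = 0.968). miR-155-5p itself was not called in either comparison. Of the 4 targets listed for miR-223-3p, the inflammasome sensor Nlrp3 was higher by 1.08 (SE 0.31, limma adjusted p = 0.0187) and Nfia by 0.95 (SE 0.22, limma adjusted p = 0.00389) in D2 controls. Mef2c was lower by 0.44 (SE 0.16). miR-223-5p was higher in the same D2 controls by 0.76 (SE 0.23, limma adjusted p = 0.0185), with all 5 above every B6 control. Between susceptible mice of the 2 strains it differed by −0.12 (SE 0.23, limma adjusted p = 0.775). Its response to defeat was called different between strains (−0.88, SE 0.32, limma adjusted p = 0.691). In B6 susceptible mice against controls it was called higher, by 0.49 (SE 0.23, limma adjusted p = 0.98). In D2 susceptible mice against controls it differed by −0.40 (SE 0.23, limma adjusted p = 0.618) and was not called. Its seed, GUGUAUU, differs from that of miR-223-3p, so the listed targets are not those of miR-223-5p.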

How the data were processed

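Data came from 25 blood miRNA, 25 blood mRNA, 13 AGO2 miRNA and 14 AGO2 mRNA libraries. The deposited values are log2 CPM that the authors computed with voom after counting reads per miRNA (miRDeep2, miRBase) or gene (STAR, HTSeq, GRCm38) and removing features with low counts. Every value was taken back to whole reads within a tolerance of 0.0001 reads. The study's methods also adjusted AGO2 mRNA values for experimental cohort and AGO2 miRNA values for surrogate variables. The labels name neither, so the main fits here held no such term. Totals were 9751603 to 15878495 reads in blood mRNA and 3701281 to 10659882 in AGO2 mRNA libraries. Counting error is largest for miRNAs with few reads.

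The members and lists were chosen with earlier results of these data known. Each table was fitted with limma 3.58.1 (R 4.3.3), all groups in 1 model with a mean-variance trend, two-sided, and p-values adjusted by the Benjamini-Hochberg method over the table. A call needed an unadjusted p under 0.05 with a 1.2-fold or wider change. Single miRNAs also had exact permutation tests over samples, and correlations had 100000 random permutations, or all permutations under 10 samples. The named genes were the members, their hairpin partners and seed relatives, erythrocyte miRNAs, host genes, textbook targets, cell markers and the 3 mRNAs and 2 miRNAs nearest to each member. The fitting was tested on simulated data. Symbols matched 13054 of 13084 blood and 16535 of 16587 AGO2 gene IDs. Blood and AGO2 tables were normalized separately and compared only by rank.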

Additional observations from a re-analysis of the deposited data

Results flagged for a closer look

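Of 48 sets of a miRNA and a group with 5 samples, 1 held a sample far from the others, and chance alone marks about 1 in 20. In D2 control mouse 5, miR-142a-5p stood at 9.65 log2 CPM, against 11.58 to 11.74 in the other 4 D2 controls. Its miR-21a-5p, at 15.94, was also the lowest of the group.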

How the results depend on the processing

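Alternatives moved mainly the counts that rest on calls near the threshold. Of the 6 blood miRNAs, the 1 called between D2 susceptible and control mice became 0 with no mean-variance trend, with quantile normalization and with only the compared groups, and 3 with sample weights. The 2 called between control strains became 1 without the erythrocyte miRNAs, and the 2 between susceptible strains became 4 by column names. In AGO2 pools the 4 called in resilient against control pools became 1 with miR-451a as a covariate, and the 1 between susceptible and resilient pools became 0 with no trend or with miR-451a and 2 with sample weights. With sample weights the listed mRNAs called went from 0 to 1 (B6 resilient against control), 7 to 1 (B6 susceptible against control), 1 to 0 (B6 susceptible against resilient), 0 to 13 (D2 susceptible against control) and 1 to 0 (AGO2 susceptible against resilient). The cause was not tested.

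Leaving out 1 sample gave ranges of 0 to 1 (B6 resilient against control), 0 to 2 (D2 susceptible against control), 1 to 4 (control strains) and 2 to 3 (susceptible strains) for blood miRNAs. Between control strains the count was 1 without B6 control mouse 4 or D2 control mouse 2 or 5, and 4 without B6 control mouse 2 or D2 control mouse 3. For AGO2 miRNAs the ranges were 2 to 5 (resilient against control), 0 to 1 (susceptible against control) and 0 to 4 (susceptible against resilient). For listed mRNAs they were 0 to 4, 1 to 14, 0 to 2, 0 to 4 and 26 to 37 in blood, in the order B6 resilient and B6 susceptible against control, B6 susceptible against resilient, D2 defeat and control strains, and 6 to 11, 11 to 18 and 0 to 2 in AGO2 pools.

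For miR-150-5p with Cd79a, r was 0.51 without the 2 farthest B6 mice, 0.63 within EC3 and 0.68 within EC4, all with p above 0.05, and 0.57 to 0.73 without 1 B6 mouse. In D2 mice rho was 0.58, r was 0.63 without the 2 farthest mice and 0.48 to 0.73 without 1 mouse. No result changed sign where called. Pool numbers did not pair the AGO2 samples (same-number pools had r from −0.10 to 0.10), and a replicate block gave 4, 0 and 0 called miRNAs and 4 listed mRNAs between susceptible and resilient pools. miR-223-3p with S100a8 and miR-126a-3p with Pf4 were not run in blood. The relations with Alas2, Ms4a1 and miR-223-5p and the alternatives for listed mRNAs were chosen after seeing the data.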
